A study of Homo sapiens with 4 samples.

Results

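The homeobox patterning genes described here are the members of 14 families of transcription factor genes, chosen by gene symbol from the annotation of the array. A gene was taken where its symbol starts with HOXA, HOXB, HOXC, HOXD, IRX, MEIS, PBX, MSX, DLX, PRRX, PITX, TGIF or NKX followed by a digit, or belongs to the family of SIX5. No measured value enters this rule, but it was set with earlier results of these data known. This gave 78 of 18661 named genes, covered by 102 of 27565 probes with 1 gene. With detection called at a p-value below 0.01, on 1 array or more, 32 of the 78 members were measured, among 10128 measured genes in all, and 22 of the 32 were detected on all 4 arrays. The other 46 members had no detected probe, which does not show that their transcripts were absent. By symbol the 78 also take in the long non-coding RNA genes IRX2-DT and MEIS1-AS3 and the pseudogenes MSX2P1 and MEIS3P1. Of these only MEIS3P1 was measured.

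The arrays held RNA of SW1353, a cell line from a human chondrosarcoma that stands in for chondrocytes. The 4 conditions were IL-1α for 6 h with trichostatin A (TSA) at 250 ng/ml added 1 h earlier (IL1_TSA), TSA without IL-1α (Con_TSA), IL-1α for 6 h (IL1) and the DMSO vehicle (Con). TSA inhibits many zinc-dependent histone deacetylases at once, and IL-1α is an inflammatory cytokine used to provoke a cartilage-degrading response. Each condition was 1 array, so no difference has a replicate check, no p-value is given, and "higher" and "lower" mean at least 1.5-fold with a detected probe on the brighter array.

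The median raw intensity ranged between 86.9 and 113 across the arrays, and 13070 to 14033 probes were detected on each, with the highest of both on IL1_TSA. Of 15 chondrocyte markers, 3 were detected, SOX9, COL11A1 and HAPLN1, while COL2A1 and ACAN, which define cartilage matrix, were not detected. Of 10 mesenchymal markers 9 were detected, against 2 of 5 epithelial markers (KRT8 and KRT18), 1 of 4 endothelial markers (VWF) and 0 of 6 blood markers. None of the 3 detected chondrocyte markers was past 1.5-fold in either TSA comparison. The mesenchymal markers COL1A1, FN1 and LUM were 1.60-fold, 1.86-fold and 1.64-fold lower in IL1_TSA than in IL1, and KRT18 was 1.89-fold lower in Con_TSA against Con, and their part in the members' differences was not tested.

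Homeobox genes encode transcription factors that bind DNA through a homeodomain and give cells their place along the body axes. HOX genes lie in clusters whose order on the chromosome follows the order of their use along the body, and their proteins bind DNA together with cofactors of the PBX and MEIS families. In limb and cartilage these genes set the pattern of the skeleton, and histone modification, acetylation included, is part of how their on and off states are kept.

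Of the 32 measured members, 12 were counted as past 1.5-fold in the same direction in both TSA comparisons, IL1_TSA against IL1 and Con_TSA against Con, which share no array. HOXB2, HOXC8, IRX3, MSX1, PBX2, PITX1, SIX5 and TGIF1 were lower with TSA, and HOXD1, MEIS1, NKX2-5 and PBX4 were higher. HOXB2, HOXC8, HOXD1, MEIS1 and PBX4 were below detection on a dimmer array. For HOXC8 and PBX4 a difference of 1.5-fold is not established, because the bounds given below fall short of it or are absent. Promoter windows of RefSeq (GRCh38.p14), which run 250 bases before to 50 bases after a gene's start, were matched by gene for 7 of these 12 members, 21 of the 32 measured and 47 of all 78. HOXB2, HOXC8, IRX3, NKX2-5 and SIX5 were not matched, and TGIF1 had 7 windows and is not shown. The other 6 are printed 5′ to 3′ on the gene's strand, first the 3 members lower with TSA and then the 3 higher, so that the promoters of the 2 directions can be read side by side. Capitals mark promoter motifs on either strand, and no marked motif shares letters with another. The GC box was searched as GGGCGG. The box named for its letters was searched as CCAAT. The box bound by the TATA-binding protein was searched as TATAAA. The windows lie at chr4:4859415-4859714 (+) for MSX1, chr6:32190153-32190452 (-) for PBX2, chr5:135034179-135034478 (-) for PITX1, chr2:176188418-176188717 (+) for HOXD1, chr2:66434875-66435174 (+) for MEIS1 and chr19:19618638-19618937 (-) for PBX4.
MSX1: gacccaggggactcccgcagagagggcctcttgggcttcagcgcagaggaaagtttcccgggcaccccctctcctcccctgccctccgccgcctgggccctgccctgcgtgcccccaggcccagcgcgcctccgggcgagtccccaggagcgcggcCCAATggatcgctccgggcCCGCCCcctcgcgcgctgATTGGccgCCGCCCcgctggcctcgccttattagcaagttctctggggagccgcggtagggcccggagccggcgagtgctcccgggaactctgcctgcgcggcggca
PBX2: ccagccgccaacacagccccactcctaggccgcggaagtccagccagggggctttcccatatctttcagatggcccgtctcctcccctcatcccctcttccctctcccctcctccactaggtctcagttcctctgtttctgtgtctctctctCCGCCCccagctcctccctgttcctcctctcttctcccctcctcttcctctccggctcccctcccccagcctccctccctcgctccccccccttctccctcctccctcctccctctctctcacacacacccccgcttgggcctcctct
PITX1: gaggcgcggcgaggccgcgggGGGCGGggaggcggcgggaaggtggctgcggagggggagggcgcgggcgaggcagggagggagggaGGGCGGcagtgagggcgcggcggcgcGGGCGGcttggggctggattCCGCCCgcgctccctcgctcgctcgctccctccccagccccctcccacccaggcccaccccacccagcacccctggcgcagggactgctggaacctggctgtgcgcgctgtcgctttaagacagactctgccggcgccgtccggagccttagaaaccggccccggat
HOXD1: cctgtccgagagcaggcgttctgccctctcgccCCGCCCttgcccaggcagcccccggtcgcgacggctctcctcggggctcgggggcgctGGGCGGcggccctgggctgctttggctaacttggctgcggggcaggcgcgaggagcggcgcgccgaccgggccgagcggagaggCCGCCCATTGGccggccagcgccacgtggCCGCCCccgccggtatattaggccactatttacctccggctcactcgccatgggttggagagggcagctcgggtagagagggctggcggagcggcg
MEIS1: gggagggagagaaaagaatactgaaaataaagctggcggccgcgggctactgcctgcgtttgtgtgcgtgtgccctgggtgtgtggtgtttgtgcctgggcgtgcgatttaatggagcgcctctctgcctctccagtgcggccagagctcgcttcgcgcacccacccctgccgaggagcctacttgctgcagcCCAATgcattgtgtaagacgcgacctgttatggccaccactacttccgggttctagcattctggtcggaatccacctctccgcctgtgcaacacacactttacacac
PBX4: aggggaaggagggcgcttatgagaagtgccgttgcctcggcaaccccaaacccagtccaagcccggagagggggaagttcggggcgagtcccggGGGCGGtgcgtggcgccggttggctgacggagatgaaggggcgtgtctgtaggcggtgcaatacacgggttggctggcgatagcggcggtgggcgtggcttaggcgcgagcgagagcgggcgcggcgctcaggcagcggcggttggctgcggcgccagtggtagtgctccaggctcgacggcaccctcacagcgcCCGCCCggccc

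Whether the windows sort by direction in what they hold was not tested, and 3 windows of each direction are too few to judge it. The members lower with TSA had 31 (MSX1), 8 (PBX2) and 35 (PITX1) CG dinucleotides, and the members higher with TSA had 36 (HOXD1), 18 (MEIS1) and 35 (PBX4), against a median of 14.0 over 35116 windows of the same length. GC boxes numbered 2, 1 and 4 in the first 3 and 4, 0 and 2 in the last 3, and 45.0% of all windows hold at least 1. A CCAAT box was found in MSX1, HOXD1 and MEIS1, and in 34.6% of all windows. No TATA box was found in the 6, nor the homeodomain core TAATTA, the HOX and PBX composite TGATTNAT or the CRE TGACGTCA, which occur on either strand in 11.5%, 4.84%, 2.82% and 1.85% of all windows. These letter matches are descriptions and not binding sites.

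In IL1_TSA against IL1, 5 of the 32 members were higher and 10 were lower, while 21.2% of all 10128 genes were higher and 18.2% lower. In Con_TSA against Con, 4 members were higher and 12 lower, while 16.3% of all genes were higher and 16.4% lower. The median log2 difference of the members was -0.35 with IL-1α and -0.49 without it, against 0.02 and -0.01 over all genes. Of the 32 members 4 were higher in both TSA comparisons and 8 were lower in both, while 12.4% of all genes were higher and 10.1% lower in both. A gene detected only with TSA, or only without it, can be counted in 1 direction only. In Con_TSA against Con the bounds of HOXC8, SIX2 and PBX4 fall short of 1.5-fold. Among the 22 members detected on all 4 arrays, 1 was higher and 8 were lower in each TSA comparison. Beside these stand 18.1% and 16.6% of all genes detected that way with IL-1α, and 14.2% and 15.2% without it. In both comparisons 1 of the 22 was higher and 6 were lower, beside 10.8% and 9.61% of all genes detected that way. No member was past 1.5-fold in opposite directions, beside 38 of 10128 genes. The same sign in both comparisons was seen in 28 of 32 members, against 7839 of 10128 genes. Among those detected on all 4 arrays it was seen in 18 of 22 members, against 6478 of 8360 genes.

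**Figure D1:**
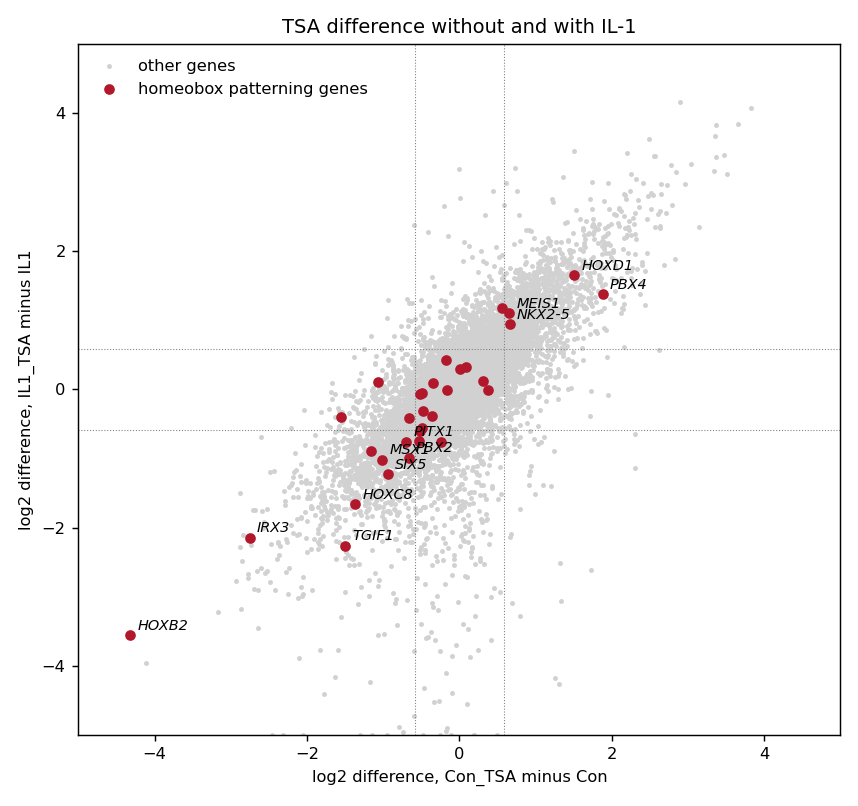
Log2 difference with TSA in cells without IL-1α (Con_TSA minus Con, x axis) and with IL-1α (IL1_TSA minus IL1, y axis) for each measured gene, with the 32 members in colour and other genes in grey. Grey points past the axis limits are drawn at the edge, and HOXB2 and IRX3 lie farthest to the lower left among the members.

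The size of these counts rests on the scale. The authors' deposited values, on a variance-stabilised log2 scale on which the differences of dim members were smaller, had 0 members higher and 4 lower in IL1_TSA against IL1, and 0 higher and 5 lower in Con_TSA against Con. Past 1.5-fold on that scale were 6.36% of all genes higher and 5.79% lower with IL-1α, and 5.02% and 3.97% without it. Scaling each array by its median in place of quantiles gave 6 higher and 7 lower with IL-1α, and 2 higher and 17 lower without it, with all-gene medians of 0.22 and -0.19. No share of all genes was counted under that scaling, so whether these counts go beyond the shift of all genes was not tested. HOXB2, IRX3, MSX1 and TGIF1 were past 1.5-fold in both TSA comparisons under the main processing and under each of 6 alternatives. HOXB2, IRX3 and MSX1 have 1 probe each, so alternatives that change only the filter or the choice of probe return their main value. For them only the deposited values, no background correction and median scaling could differ. The noise of a single probe, estimated from probes of the same gene, had an SD of 0.55 (IL1_TSA minus IL1) and 0.52 (Con_TSA minus Con) on the log2 scale under a level of 7, and 0.19 and 0.17 above a level of 11. It does not cover the spread between cultures.

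Of the HOX genes, HOXB2 on chromosome 17 had the largest log2 difference of any member with TSA on the scale used here, on which it was below detection in both arrays with TSA, whereas on the deposited scale that of IRX3 was larger in both comparisons. HOXB2 acts near the front of the HOX-patterned axis, in the hindbrain. Its raw intensity was 165 in IL1_TSA and 97.8 in Con_TSA, against 775 in IL1 and 889 in Con. Its log2 level was 5.97 in IL1_TSA and 5.39 in Con_TSA, not detected in either, against 9.53 in IL1 and 9.72 in Con. The level was thus lower by at least 8.81-fold with TSA in the presence of IL-1α, and by at least 8.52-fold in its absence. On the deposited scale the log2 differences were -1.07 and -1.24. HOXB1, its neighbour, was measured at 6.92 in IL1_TSA, 6.48 in Con_TSA (not detected), 6.99 in IL1 and 7.0 in Con, within 1.5-fold in both comparisons. The other 8 HOXB members were not detected.

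HOXC8 on chromosome 12, a gene of the trunk and its ribs and vertebrae, was likewise detected only on the 2 arrays without TSA. Its log2 level was 5.14 in IL1_TSA and 5.44 in Con_TSA, not detected in either, against 6.80 in IL1 and 6.81 in Con. HOXC8 was near the detection limit throughout, so that the bound is at least 1.33-fold lower in IL1_TSA and at least 1.14-fold lower in Con_TSA, and the deposited differences were -0.16 and -0.10. HOXC6, its neighbour, read by 1 of 4 probes, had a log2 level of 9.22 in IL1_TSA, 9.11 in Con_TSA, 9.62 in IL1 and 10.66 in Con. HOXC6 was lower by 2.93-fold in Con_TSA against Con (log2 -1.55, but -0.68 at a detection p under 0.05 and -0.48 with no filter) and within 1.5-fold in IL1_TSA against IL1. HOXC13 and HOXC4 were within 1.5-fold in both TSA comparisons, HOXC11 was detected only in Con, at 6.77, and was not counted as higher or lower in either, and HOXC5, HOXC9, HOXC10 and HOXC12 were not detected. Some transcripts of HOXC4, HOXC5 and HOXC6 share sequence, and which of them the probes read was not determined.

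HOXD1 and HOXD8 on chromosome 2 were detected only on the 2 arrays with TSA. The log2 level of HOXD1 was 7.55 in IL1_TSA and 7.95 in Con_TSA, against 5.90 in IL1 and 6.44 in Con, where it was not detected. HOXD1 was at least 1.77-fold higher in IL1_TSA than in IL1 and at least 2.49-fold higher in Con_TSA than in Con, with deposited differences of 0.23 and 0.30. HOXD8 had a level of 6.51 in IL1_TSA and 6.69 in Con_TSA, against 5.33 in IL1 and 6.14 in Con, not detected in either of these. It was counted as higher in IL1_TSA than in IL1, though no fold can be bounded because its level was under the lowest detected level of the IL1 array, and it was within 1.5-fold in Con_TSA against Con. HOXD12 and HOXD13, which pattern the ends of the limbs, were within 1.5-fold in both comparisons, and the other 5 HOXD members were not detected. Of the HOXA cluster the annotation names HOXA2 only, by 2 probes that were not detected, so that cluster is not described.

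**Figure D2:**
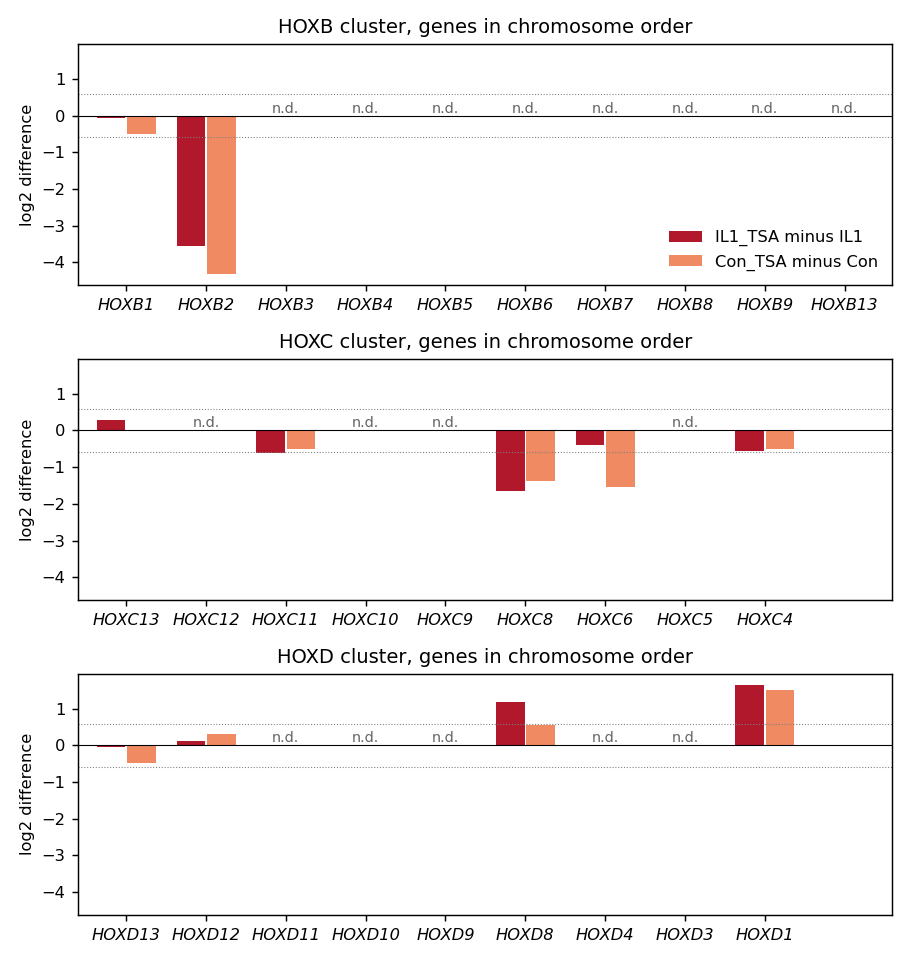
Log2 difference with TSA (y axis) of the HOXB, HOXC and HOXD genes in their chromosome order (x axis), with IL1_TSA minus IL1 beside Con_TSA minus Con. Dotted lines mark 1.5-fold and n.d. marks genes not detected, and the lowest bars are those of HOXB2, whose level with TSA was below detection.

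MEIS, PBX, TGIF and IRX proteins share a homeodomain with 3 extra residues, the TALE class, and MEIS and PBX proteins bind DNA beside HOX proteins. IRX3 on chromosome 16, an Iroquois factor of early nervous system, heart and limb patterning, was bright on all 4 arrays. Its raw intensity was 2579 in IL1_TSA and 1311 in Con_TSA, against 8405 in IL1 and 11006 in Con. The log2 level was 10.92 in IL1_TSA and 10.68 in Con_TSA, against 13.07 in IL1 and 13.44 in Con. IRX3 was 4.42-fold lower in IL1_TSA than in IL1 (log2 -2.14, deposited -2.09) and 6.74-fold lower in Con_TSA than in Con (log2 -2.75, deposited -2.58). Both array pairs are apart by far more than the probe noise at this level, and the deposited scale gives nearly the same sizes. Ordered by log2 difference from the lowest, IRX3 stood at place 111 of 8649 genes detected on both arrays in IL1_TSA against IL1, and at place 4 of 8686 in Con_TSA against Con. On the deposited scale these places were 42 and 1.

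IRX5, an Iroquois gene on the same chromosome, had a level of 7.85 in IL1_TSA, 7.37 in Con_TSA, 8.61 in IL1 and 7.61 in Con, as the mean of 2 probes, of which 1 was not detected in Con_TSA. IRX5 was 1.69-fold lower in IL1_TSA than in IL1 and within 1.5-fold in Con_TSA against Con. IRX2 was within 1.5-fold in both, and the other 4 IRX members were not detected.

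TGIF1, a repressor that binds SMAD proteins and restrains TGF-β responses, was read by 3 kept probes, and the 2 detected on all 4 arrays were both lower with TSA. Its level was 7.58 in IL1_TSA and 7.67 in Con_TSA, against 9.84 in IL1 and 9.16 in Con. That is 4.80-fold lower in IL1_TSA than in IL1 (log2 -2.26, deposited -1.19) and 2.82-fold lower in Con_TSA than in Con (log2 -1.50, deposited -0.84). One probe had a level of 9.23 in IL1_TSA and 9.34 in Con_TSA, against 11.74 in IL1 and 11.19 in Con, and another had 8.58 in IL1_TSA and 8.50 in Con_TSA, against 10.71 in IL1 and 10.46 in Con. The third probe was detected only in IL1, at 7.08. TGIF2, its paralogue, was within 1.5-fold in both comparisons.

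Among the HOX cofactors the members moved in different directions. PBX2 on chromosome 6 had a log2 level of 6.81 in IL1_TSA and 7.0 in Con_TSA, against 7.80 in IL1 and 7.67 in Con, which is 1.99-fold lower with IL-1α present and 1.59-fold lower without it (deposited -0.23 and -0.16). PBX4 on chromosome 19 had 6.62 in IL1_TSA and 6.91 in Con_TSA, against 5.24 in IL1 and 5.03 in Con, where it was not detected. It was higher by at least 1.22-fold in Con_TSA, and no fold can be bounded in IL1_TSA against IL1. PBX3 was within 1.5-fold in both TSA comparisons. MEIS1 on chromosome 2 had 7.80 in IL1_TSA and 7.37 in Con_TSA, against 6.70 in IL1, not detected, and 6.72 in Con. It was at least 2.10-fold higher in IL1_TSA than in IL1 and 1.57-fold higher in Con_TSA against Con, and the deposited differences were 0.21 and 0.10. MEIS3 and MEIS3P1, a related pseudogene with near-identical sequence whose probes may read each other, were within 1.5-fold.

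Of the paired-type factors, PITX1 on chromosome 5, which gives the hindlimb its identity, had a level of 9.30 in IL1_TSA and 9.57 in Con_TSA, against 10.06 in IL1 and 10.27 in Con. PITX1 was 1.69-fold lower in IL1_TSA than in IL1 and 1.62-fold lower in Con_TSA than in Con, with deposited differences of -0.46 and -0.43, short of 1.5-fold on that scale. PRRX1, a marker of early limb mesenchyme, was detected in Con alone, at 7.29, and was at least 1.59-fold lower in Con_TSA than in Con. It was not detected in IL1_TSA or IL1, so that pair gives no call.

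Of the MSX, DLX and NKX genes, MSX1 on chromosome 4, which acts in tooth, face and limb, had nearly the same level on the 2 arrays with TSA and nearly the same on the 2 without. The log2 level of MSX1 was 10.27 in IL1_TSA and 10.28 in Con_TSA, against 11.29 in IL1 and 11.29 in Con. It was 2.03-fold lower in IL1_TSA than in IL1 and 2.02-fold lower in Con_TSA than in Con (deposited -0.83 and -0.75). NKX2-5 on chromosome 5, best known as a heart factor, had 8.15 in IL1_TSA and 8.02 in Con_TSA, against 7.21 in IL1 and 7.36 in Con, which is 1.92-fold higher with IL-1α present and 1.58-fold higher without it. Of the 4 members higher in both comparisons it was the only one detected on all 4 arrays, and its deposited differences were 0.24 and 0.19. DLX1 was past 1.5-fold only with IL-1α present, 1.68-fold lower in IL1_TSA, and DLX5, a factor of bone formation, only without it, 2.10-fold lower in Con_TSA. The level of DLX5 in Con, 8.74, was the highest of the 4 arrays, and IL1 against Con, given below, uses the same Con array. Whether the TSA differences of DLX1 and DLX5 depend on IL-1α was not tested. Of 12 NKX members 10 were not detected, and of 6 DLX members 4.

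SIX5 on chromosome 19, of a family that works with EYA proteins, had a level of 7.61 in IL1_TSA and 7.82 in Con_TSA, against 8.84 in IL1 and 8.76 in Con. SIX5 was 2.35-fold lower in IL1_TSA than in IL1 and 1.92-fold lower in Con_TSA than in Con, with deposited differences of -0.45 and -0.40. SIX4 was within 1.5-fold in both comparisons. SIX2, detected in Con alone, was at least 1.03-fold lower in Con_TSA than in Con, near the detection limit.

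**Figure D3:**
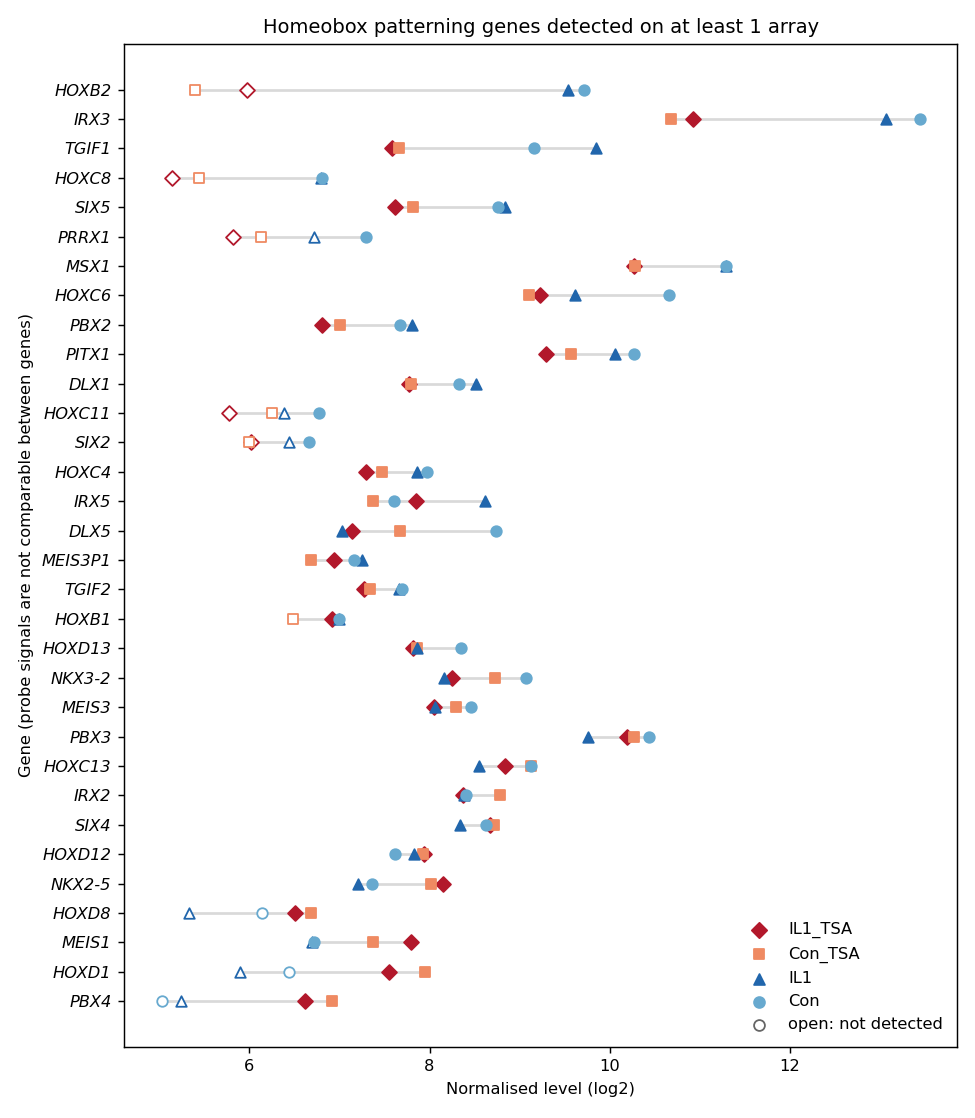
Log2 level (x axis) of the 32 measured members (rows) on each of the 4 arrays, 1 array per condition, with open symbols for arrays on which no probe was detected. The symbols of IL1_TSA and Con_TSA lie left of those of IL1 and Con for HOXB2, IRX3, TGIF1 and MSX1, and right of them for HOXD1.

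**Figure D4:**
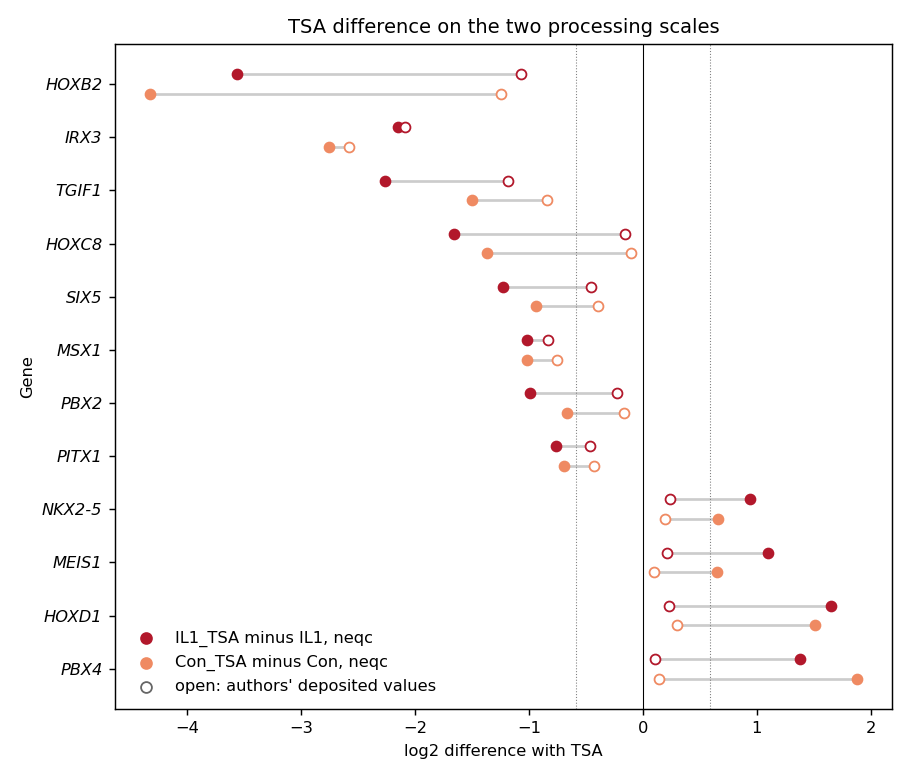
Log2 difference with TSA (x axis) of the 12 members past 1.5-fold the same way in both TSA comparisons (rows), with filled points for the values used here and open points for the authors' deposited values. IRX3 keeps nearly its full size on the deposited scale, while the 4 members higher with TSA all fall within the dotted lines that mark 1.5-fold.

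In IL1 against Con, 2 of 32 members were higher and 4 lower, and 8.54% of all genes were higher and 7.93% lower. Among the 22 members detected on all 4 arrays these counts were the same, beside 6.76% and 6.38% of all genes detected that way. Without background correction the counts were 1 and 4, with no share of all genes counted. On the deposited scale they were 0 and 1, beside 3.35% of all genes higher and 0.849% lower. The median difference of the members was -0.17, against -0.10 over all genes. IL1 against Con shares the Con array with Con_TSA against Con, and the IL1 array with IL1_TSA against IL1. DLX5, HOXC6, IRX5 and TGIF1 were each called in 2 comparisons that share an array. Both calls of such a member can rest on 1 reading and are not separate evidence.

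The members lower with IL-1α included DLX5, with a level of 7.03 in IL1 and 8.74 in Con, which is 3.29-fold lower (deposited -0.53). NKX3-2, a repressor of chondrocyte maturation, had 8.16 in IL1 and 9.08 in Con, 1.88-fold lower (deposited -0.41). HOXC6 was 2.05-fold lower (deposited -0.77), the only one past 1.5-fold on that scale. Its call was lost when more of its 4 probes were kept, with log2 differences of -0.42 at a detection p under 0.05 and -0.15 with no filter. PBX3 had 9.76 in IL1 and 10.44 in Con, 1.60-fold lower (deposited -0.52). HOXC13, at 8.55 in IL1 and 9.12 in Con, was 1.49-fold lower and so fell just short. The members higher with IL-1α were IRX5, 2.01-fold (deposited 0.38), and TGIF1, 1.60-fold (deposited 0.29). The TGIF1 call was past 1.5-fold in 2 of 6 alternatives. The 2 TGIF1 probes detected on all 4 arrays differed by 0.55 and 0.25 on the log2 scale, short of 1.5-fold, and the third, not detected in Con, by 1.23. Both IRX5 probes were higher, with levels of 9.37 and 7.86 in IL1, against 8.26 and 6.95 in Con.

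In IL1_TSA against Con_TSA, 0 of the 32 members were past 1.5-fold, and 4.2% of all genes were higher and 2.75% lower. The members' log2 differences ran between -0.53 and 0.58, with a median of -0.09 against -0.03 over all genes. DLX5 had a level of 7.14 in IL1_TSA and 7.67 in Con_TSA, a difference of -0.53, and NKX3-2 had 8.25 and 8.73, a difference of -0.48. PBX3 had 10.19 in IL1_TSA and 10.27 in Con_TSA, and the differences of IRX5, TGIF1 and HOXC6 were 0.48, -0.09 and 0.11. Over genes detected on all 4 arrays the shares were 2.61% and 1.96%, and on the deposited scale, where 0 members were past 1.5-fold as well, 0.879% and 0.109% of all genes. Whether the response to IL-1α differs with TSA was not tested, since each condition was 1 array. Scaling each array by its median gave 5 members higher in IL1_TSA than in Con_TSA, with a shift of 0.35 in the median of all genes. No share of all genes was counted under that scaling.

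**Figure D5:**
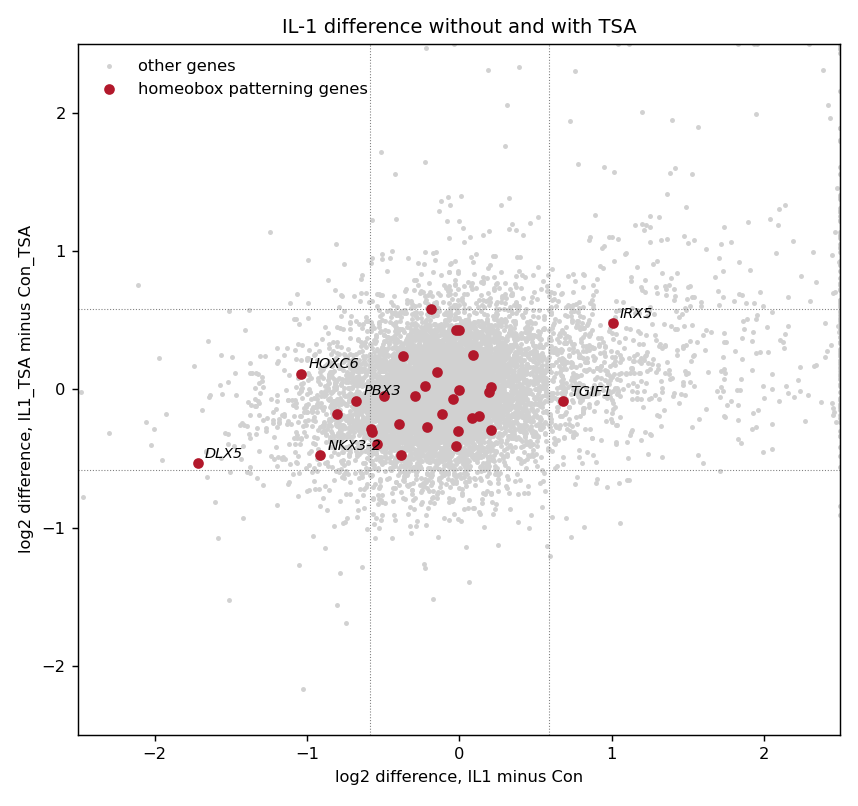
Log2 difference with IL-1α in cells without TSA (IL1 minus Con, x axis) and with TSA (IL1_TSA minus Con_TSA, y axis) for each measured gene, with the 32 members in colour and other genes in grey, and grey points past the axis limits drawn at the edge. No member lies past 1.5-fold on the y axis, and the unnamed member past it on the x axis is HOXD8, which was not detected on either array and is not counted.

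Other lists give the setting of these genes. Of 26 measured homeobox genes outside the 14 families, 5 were higher (19.2%) and 7 lower (26.9%) in both TSA comparisons. ADNP, a homeodomain protein of chromatin complexes, was 2.77-fold lower in IL1_TSA than in IL1 and 4.92-fold lower in Con_TSA than in Con. ZEB2, a repressor of epithelial genes, was 6.18-fold lower and at least 3.99-fold lower in the same order, ZHX2 was 2.29-fold and at least 2.99-fold lower, and POU4F1 was higher by at least 1.78-fold and 2.02-fold. Of 16 measured limb and skeletal transcription factors, 1 was higher (6.25%) and 6 lower (37.5%) in both. RUNX2, the main factor of bone formation, was 4.71-fold lower in IL1_TSA than in IL1 and 3.59-fold lower in Con_TSA than in Con, and TBX15 was 2.94-fold and 2.27-fold lower. FOXF2 was not detected on either array with TSA and was lower by at least 6.04-fold with IL-1α and by at least 4.51-fold without it. These bounds hold for the scale used here, and the deposited log2 differences of FOXF2 were -0.76 and -0.68. HAND1, a limb and heart factor, had a level of 8.98 in IL1_TSA and 8.43 in Con_TSA, against 5.32 in IL1 and 5.08 in Con, where it was not detected. It was higher by at least 4.77-fold with IL-1α and by at least 3.49-fold without it, with deposited differences of 0.81 and 0.59.

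Polycomb proteins hold homeobox genes in a repressed state and Trithorax proteins in an active one. Of 26 measured Polycomb genes, 6 were higher and 3 lower in both TSA comparisons, with CBX2 3.54-fold and 2.04-fold higher, CBX7 2.11-fold and 2.03-fold higher, RYBP 2.06-fold and 1.88-fold higher, and ASXL1 2.07-fold and 2.21-fold lower, giving IL1_TSA against IL1 before Con_TSA against Con. Of 15 Trithorax genes, 2 were higher and 2 lower in both, with RBBP5 3.56-fold and 3.13-fold higher, CXXC1 1.67-fold and 2.04-fold higher, HCFC1 2.97-fold and 2.86-fold lower, and NCOA6 2.65-fold and 2.32-fold lower. Of 15 partners and corepressors of homeobox proteins, 0 were higher and 3 lower in both. These were CTBP2, lower by at least 2.48-fold and 2.60-fold, and the acetyltransferases CREBBP, 2.98-fold and 3.07-fold lower, and EP300, 1.86-fold and 1.78-fold lower. Of 9 genes of the retinoic acid pathway, which sets HOX gene activity in the embryo, RDH10 was 2.40-fold and 1.59-fold higher and RXRA 1.56-fold and 1.94-fold lower. These counts stand beside 12.4% of all genes higher and 10.1% lower in both comparisons, and nothing particular to a list was tested. The folds of the listed genes rest on the scale as well, and each named difference was smaller on the deposited scale. There POU4F1 had 0.25 and 0.25 and EP300 -0.41 and -0.36, short of 1.5-fold, while RBBP5 had 1.11 and 1.07.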

How the data were processed

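RNA of 4 conditions of SW1353 cells was measured on Illumina arrays, 1 array each. The labels give 6 h of IL-1α, while the study's legends name a longer time, and the labelled time is used. The authors deposited probe intensity values, not normalised between arrays, with a detection p-value per probe, for 48784 probes. The other deposited table has log2 values, which the authors made with lumi (version not given in the sources used here) by stabilising the variance and aligning the arrays by robust splines.

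Intensities were processed with neqc of limma 3.58.1 in R 4.3.3, which corrects background by normexp (negative controls inferred from detection p-values), adds an offset of 16, quantile normalises and takes log2. Probes with detection p under 0.01 on at least 1 array were kept (15088, of which 12953 had 1 gene), and a gene is the mean of its kept probes. The platform annotation names 1 gene for 27565 probes and several for 13, and 21206 probes are not listed in it and were left out. It appears to be of an older array design, which was not tested. All 78 members matched RefSeq by gene number.

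A gene was called higher or lower at 1.5-fold, the study's threshold, with a detected probe on the brighter array. Where no probe was detected on the dimmer array, "at least" marks the brighter level divided by the dim level or, if that is higher, the lowest level detected on that array. Probe noise is the SD, over genes, of the gap between the log2 differences of 2 probes of 1 gene. That SD was divided by the square root of 2 to give the noise of a single probe. No test between conditions was made, and the number of arrays limits the precision. The counting step was run on simulated arrays with every gene detected, less noise than the probes show here and planted differences past the threshold. That run checks the arithmetic of the count and not the calls made here. Named members are those past 1.5-fold the same way in both TSA comparisons, those past it with IL-1α and the 5 of highest mean signal, and of each other list at most 4 genes with the largest mean TSA difference. The members and the gene lists were chosen with earlier results of these data known. The alternatives were the deposited values, no background correction, median scaling, a detection p under 0.05, detection on all 4 arrays, no detection filter, the probe of highest mean level and a 2-fold threshold.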

Additional observations from a re-analysis of the deposited data

How the results depend on the processing

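Of the log2 differences of named members that were called, none changed sign under the 6 alternatives that give them a value. Of those not called, 15 values changed sign, among them IRX5 in Con_TSA against Con (0.19 with the probe of highest mean level, -0.24 in the main processing) and HOXC6 in IL1_TSA against IL1 (0.15 at detection p under 0.05, -0.40 in the main processing). Called differences past 1.5-fold in 4 of 6 alternatives or fewer were TGIF1 (2), HOXC6 (4) in IL1 against Con, MEIS1 (3), NKX2-5 (3) and PBX2 (4) in Con_TSA against Con, and IRX5 (3) and PITX1 (4) in IL1_TSA against IL1. Members with 1 probe, among them MEIS1, NKX2-5, PBX2 and PITX1, keep the main value where only the filter or the choice of probe changes. In Con_TSA against Con, MEIS1 and NKX2-5 fell short of 1.5-fold in each alternative that could differ. With deposited values, no background correction and median scaling, MEIS1 had 0.10, 0.39 and 0.50, and NKX2-5 had 0.19, 0.46 and 0.50. With the authors' deposited values, the counts in IL1_TSA against IL1 were 0 higher and 4 lower, in Con_TSA against Con 0 and 5, in both TSA comparisons 0 and 4, and in IL1 against Con 0 and 1. For both TSA comparisons together, no share of all genes was counted on the deposited scale. The deposited values kept the direction of all 13 named members called in IL1_TSA against IL1 and all 14 called in Con_TSA against Con, of which 4 and 5 stayed past 1.5-fold. At a 2-fold threshold, 6 members were lower in IL1_TSA than in IL1, 2 were higher in Con_TSA than in Con, 2 higher and 5 lower in both TSA comparisons, and 1 higher and 2 lower in IL1 than in Con. Without background correction, 2 members were higher in Con_TSA than in Con, 2 higher in both TSA comparisons and 1 higher in IL1 than in Con. Median scaling gave 2 higher in Con_TSA than in Con, 2 higher in both, and 5 higher in IL1_TSA than in Con_TSA, and moved the median of all genes to 0.22 (IL1_TSA against IL1), -0.19 (Con_TSA against Con), -0.10 (IL1 against Con) and 0.35 (IL1_TSA against Con_TSA), with members' medians of -0.09, -0.60, -0.18 and 0.24. Over the 22 members detected on all 4 arrays, 1 was higher in IL1_TSA than in IL1, 1 in Con_TSA than in Con and 1 in both, beside 18.1%, 14.2% and 10.8% of all genes detected that way. With detection p under 0.05, which admits 50 members, 16 were lower in IL1_TSA than in IL1 and 4 higher in IL1 than in Con, and with no filter 16 of 78 were lower in IL1_TSA than in IL1. The probe of highest mean level gave 1 member higher in IL1 than in Con. The cause of these shifts was not tested. Shares of all genes were counted only for the main processing, for genes detected on all 4 arrays and, in single comparisons, for the deposited values. The counts at the other settings, and those in both TSA comparisons on the deposited scale, therefore do not show whether the members differ from other genes. Dim members, HOXC8, HOXD1, HOXD8, PBX4, PRRX1 and SIX2 among them, have at most a bound in a pair with 1 array on which no probe was detected, and HOXD8 and PBX4 have none in IL1_TSA against IL1. No paired analysis was possible because each condition has a single array, labelled replicate 1.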
